A study of Mus musculus with 8 samples.

Results

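The genes described here are 10 antioxidant genes of the NRF2 pathway, chosen by symbol: Nfe2l2, Keap1, Gclc, Gclm, Slc7a11, Txnrd1, Srxn1, Prdx1, Nqo1 and Sod2. All 10 were found in the count tables, which list 53735 genes, and all 10 were among the 14418 genes tested. RNA-seq measured their mRNA in bone marrow-derived macrophages (BMDMs), cells grown from marrow with a macrophage differentiation medium, of male mice of 6 months, which were either WT with the genotype Mkl1+/+, Apoe-/- or KO with the genotype Mkl1-/-, Apoe-/-. Mkl1 encodes a coactivator of serum response factor that answers to actin polymerisation, and the comparison asks what its loss does to the macrophage transcriptome. Every mouse of both groups lacked Apoe, the apolipoprotein whose loss gives high plasma cholesterol, and every mouse received angiotensin II (Ang II) from a minipump at 1.44 mg/kg/day for 7 days, after which marrow cells were cultured for 7 days. The libraries came in 2 experiments, with WT 1 and 2 and KO 5 and 6 in experiment 1, and WT 3 and 4 and KO 7 and 8 in experiment 2. No library of mice without Ang II or with intact Apoe was analysed here, the Mkl1 loss is not limited to macrophages, and the labels do not say whether a library came from 1 mouse or from pooled mice, so p-values measure only the spread between libraries.

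NRF2, the protein of Nfe2l2, is a transcription factor that KEAP1 binds and delivers for degradation in unstressed cells. Oxidants and electrophiles modify cysteines of KEAP1, NRF2 then accumulates, pairs with small MAF proteins and binds antioxidant response elements near its target genes. Because this switch acts on the protein, the mRNA of Nfe2l2 is not a readout of NRF2 activity. Among the targets, GCLC and GCLM form glutamate-cysteine ligase, the enzyme that limits glutathione synthesis, and SLC7A11 imports the cystine it needs. TXNRD1, SRXN1 and PRDX1 belong to the thioredoxin and peroxiredoxin system, NQO1 reduces quinones, and SOD2 removes superoxide in mitochondria and is also a well known target of NF-kB in macrophages.

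The start regions of the members are shown because the antioxidant response element is the sequence through which NRF2 acts. RefSeq windows from 250 bases before to 50 bases after each start (GRCm38.p6) were held for 9 of the 10 members, and a window for Gclc was not used here. The core of the element, TGACNNNGC on either strand, was found at 5 members. Over all RefSeq genes with such a window, 14% had a match, and over all windows 12.4%. The 5 stretches below are printed 5′ to 3′ on the strand of the gene, with the match in capitals. A match on the opposite strand reads GC first and TCA last.
Nfe2l2, chr2:75704664-75704913, minus strand: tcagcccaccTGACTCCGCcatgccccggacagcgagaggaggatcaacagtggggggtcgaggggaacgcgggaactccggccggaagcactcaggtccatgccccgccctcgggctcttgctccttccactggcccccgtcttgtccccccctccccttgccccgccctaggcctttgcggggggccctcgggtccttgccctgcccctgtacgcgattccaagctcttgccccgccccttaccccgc
Gclm, chr3:122245307-122245556, plus strand: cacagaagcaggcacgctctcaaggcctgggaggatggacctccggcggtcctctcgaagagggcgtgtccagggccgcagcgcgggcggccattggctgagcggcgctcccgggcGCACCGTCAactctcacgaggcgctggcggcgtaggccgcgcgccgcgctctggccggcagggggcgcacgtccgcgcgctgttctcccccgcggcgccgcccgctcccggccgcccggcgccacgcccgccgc
Prdx1, chr4:116685349-116685543, plus strand: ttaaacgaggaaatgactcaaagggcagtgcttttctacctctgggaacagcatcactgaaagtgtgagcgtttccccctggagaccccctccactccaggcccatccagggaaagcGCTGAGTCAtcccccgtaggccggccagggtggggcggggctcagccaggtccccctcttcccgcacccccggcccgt
Txnrd1, chr10:82858956-82859178, plus strand: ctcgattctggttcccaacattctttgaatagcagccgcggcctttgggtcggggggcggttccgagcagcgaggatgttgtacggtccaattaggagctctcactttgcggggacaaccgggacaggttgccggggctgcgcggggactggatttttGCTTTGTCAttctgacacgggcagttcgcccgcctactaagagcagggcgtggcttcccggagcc
Srxn1, chr2:152105542-152105571, plus strand: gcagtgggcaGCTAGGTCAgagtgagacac

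The match began at -240 relative to the RefSeq start in Nfe2l2, at -134 in Gclm, at -133 in Prdx1 and at -92 in Txnrd1, where it belongs to 1 of 3 RefSeq starts. In Srxn1 it began at 28, inside the transcribed part. The match in Prdx1 overlaps the AP-1 core TGANTCA, which was found in 8.97% of genes. The windows of Keap1, Nqo1, Slc7a11 and Sod2 held no core match. A match is a run of letters and not a measured binding site, and elements farther from the start lie outside these windows.

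Libraries held 33977799 to 41584540 counts, and levels are given as CPM, the counts of a gene scaled to a common library total, after TMM scaling over the 8 libraries. Mkl1, the deleted gene, was at 25.6, 27.1, 26.8 and 29.6 CPM in WT 1 to 4 and at 19.5, 20.9, 14.6 and 10.4 CPM in KO 5 to 8, so that all 4 KO libraries were under the lowest WT library, with reads remaining in each. Its log2 fold change was -0.39 in experiment 1 and -1.17 in experiment 2 (edgeR adjusted p = 0.00381 and 0.0218). Over all tested genes, the 2 groups closest to each other were WT of experiment 1 and KO of experiment 2, whose mean log2 CPM differed with an SD of 0.406 over genes, while the other 5 pairs of groups gave 0.841 to 0.983. The 8 macrophage markers summed to 15235 to 36019 CPM in every library. Lyz2 and Adgre1 made up most of the sum in every library. In experiment 1 the sums were 36019 and 26521 CPM in WT 1 and 2 against 20224 and 18325 CPM in KO 5 and 6, without overlap. In experiment 2 the sums overlapped between genotypes. In experiment 1, 3 of the 8 were lower and 4 higher in KO, against 28.1% and 27% of all tested genes. Adgre1 (4.32-fold), Itgam (2.04-fold) and Lyz2 were lower, and Mertk (3.12-fold), Csf1r, Cd68 and Fcgr1 were higher. The 9 fibroblast and stromal markers summed to 178 and 234.5 CPM in KO 5 and 6 and to 2.18 to 12.1 CPM in the other 6 libraries, and 7 of the 9 were higher in KO in experiment 1 while Lum and Thy1 were at or near 0. The 5 dendritic cell markers, carried by Itgax, summed to 19.7 and 29.6 CPM in KO 5 and 6 and 31.8 and 47.4 CPM in WT 3 and 4, against 1.58 to 3.79 CPM in the other 4 libraries. The 8 neutrophil markers stayed at 0.325 to 1.52 CPM in sum. The part of other cells in the differences below was not tested, and in bulk RNA fewer cells of a type and less RNA per cell cannot be told apart.

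Corrected for exon length, the members differed widely in level. Prdx1, with a mean of 447.6 CPM per kb, was the most abundant, followed by Nfe2l2 at 135.4. Srxn1 at 54.7, Txnrd1 at 39.5 and Sod2 at 37.8 came next, then Gclm at 21.1, Keap1 at 18.5 and Gclc at 11.7, and Nqo1 at 5.24 and Slc7a11 at 2.84 CPM per kb were the lowest. Over the 8 libraries Prdx1 and Nfe2l2 did not overlap with each other or with any other member, whereas neighbours in the order from Srxn1 to Gclc overlapped. Sod2 ranged from 5.97 to 80.1 and Gclm from 7.06 to 35.5 CPM per kb, both reaching into the range of Nqo1, whose highest value was 8.55, so the order of means is not the order in each group. The overlapping gene Eid3, on the same strand as Txnrd1, held 1033 counts against 84292, and the Prdx1 pseudogene Gm7204 held 54 counts against 417833.

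**Figure D1:**
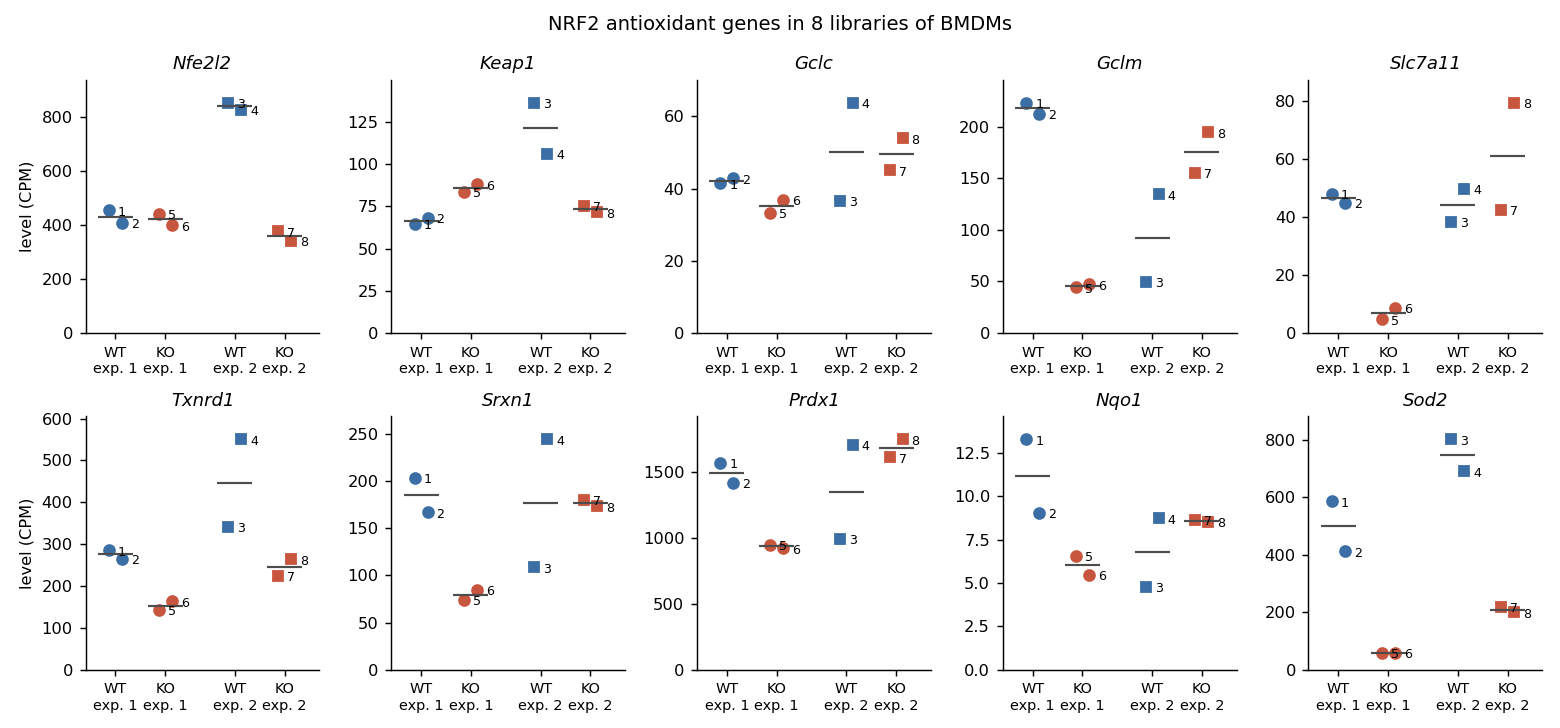
Level of each gene in CPM (vertical axis, from 0) in the 8 libraries, grouped by genotype and experiment, with a point per library marked by its number and a line at the mean of each pair. Sod2 and Txnrd1 were lower in all 4 KO libraries than in all 4 WT libraries, and Gclm and Slc7a11 fell in KO of experiment 1 and not in KO of experiment 2.

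In experiment 1, 8 of the 10 genes fell and 1 rose in KO BMDMs at an adjusted p under 0.05 (edgeR quasi-likelihood test, Benjamini-Hochberg adjusted over all tested genes). Sod2, Slc7a11 and Gclm fell most, by 8.41-, 6.90- and 4.80-fold. In this experiment 55.1% of all tested genes passed the threshold, 28.1% lower and 27% higher, and the median log2 fold change was -0.88 over the 10 genes and 0.01 over all tested genes. In experiment 2, 3 of the 10 genes passed, all lower, namely Nfe2l2, Keap1 and Sod2, against a background of 15.8% in either direction and 8.29% lower and 7.52% higher. The median over the 10 genes was -0.0089 there, and 0.0067 over all tested genes. In experiment 1, 8 of the 10 had both KO libraries below both WT libraries and 1 had them above, against 38.7% and 41.2% of all tested genes, and in experiment 2 these counts were 4 and 1, against 32.5% and 32.9%.

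The regulators themselves moved differently in the 2 experiments. Nfe2l2 (chr2:75675513-75704641, minus strand, gene model of GENCODE M21 on GRCm38, as for the positions below) was at 455 and 409 CPM in WT 1 and 2 and at 443 and 400.0 CPM in KO 5 and 6. WT 3 and 4 held 854 and 829 CPM and KO 7 and 8 held 377 and 343 CPM. The groups overlapped in experiment 1 and lay far apart in experiment 2, where the WT libraries were also far above the WT libraries of experiment 1. The log2 fold change of Nfe2l2 was -0.048 ± 0.079 (SE, n = 2 against 2 libraries) in experiment 1 and -1.23 ± 0.14 in experiment 2 (edgeR adjusted p = 0.633 and 0.0108). The difference between the experiments was -1.19 (edgeR interaction, adjusted p = 0.00105).

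Keap1 (chr9:21229730-21239361, minus strand), the adaptor that holds NRF2 for degradation, went up in experiment 1 and down in experiment 2. It was at 64.7 and 68.2 CPM in WT 1 and 2 against 83.4 and 87.9 CPM in KO 5 and 6. In WT 3 and 4 it was at 136 and 106 CPM, against 75.4 and 71.4 CPM in KO 7 and 8. The groups did not overlap in either experiment, yet in opposite order, and the KO libraries of both experiments lay between 71.4 and 87.9 CPM while the WT libraries ranged from 64.7 to 136. In KO over WT the log2 fold change was 0.36 ± 0.062 in experiment 1 and -0.72 ± 0.15 in experiment 2 (edgeR adjusted p = 0.00161 and 0.0356), and the difference was -1.09 (edgeR interaction, adjusted p = 0.00245). Keap1 was the only member past the threshold in opposite directions, against 6.34% of all tested genes. The call in experiment 2 was lost without WT 3, KO 7 or KO 8 (edgeR adjusted p = 0.113, 0.106 and 0.156), and that of Nfe2l2 without KO 8 (0.0670).

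Of the glutathione synthesis genes, Gclm and Slc7a11 fell sharply in KO of experiment 1 and had positive log2 fold changes short of the threshold in experiment 2. Gclm (chr3:122245557-122270732, plus strand), the modifier subunit of glutamate-cysteine ligase, was at 223 and 212 CPM in WT 1 and 2 and at 44.4 and 47.2 CPM in KO 5 and 6. Experiment 2 gave 49.7 and 134 CPM in WT 3 and 4 and 156 and 195 CPM in KO 7 and 8. WT 3 was as low as the KO libraries of experiment 1, and KO 7 and 8 approached WT 1 and 2. As a log2 fold change, KO over WT was -2.26 ± 0.064 in experiment 1 and 0.93 ± 0.48 in experiment 2 (edgeR adjusted p = 4.22e-07 and 0.244), with a difference of 3.18 (edgeR interaction, adjusted p = 0.00386). That difference ran from 2.66 to 4.07 with each library left out. Without WT 4 the value in experiment 2 was 1.82 (edgeR adjusted p = 0.00805), and without WT 3 it was 0.38 (0.332), the 2 ends of its range with each library left out.

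Slc7a11 (chr3:49892526-50443614, minus strand), the cystine transporter, was at 47.9 and 44.9 CPM in WT 1 and 2 and at 4.71 and 8.77 CPM in KO 5 and 6, the latter from 174 and 351 counts. Levels of 38.3 and 49.7 CPM were found in WT 3 and 4 and of 42.4 and 79.3 CPM in KO 7 and 8. The 4 WT libraries held similar levels, only KO 5 and 6 were low, and the groups overlapped in experiment 2. KO over WT was -2.79 ± 0.32 in experiment 1 and 0.47 ± 0.33 in experiment 2 on the log2 scale (edgeR adjusted p = 0.00490 and 0.370), with a difference of 3.25, close to that of Gclm (edgeR interaction, adjusted p = 0.00228). Without the filter on low counts, the adjusted p in experiment 1 was 0.0516.

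Gclc (chr9:77754535-77794485, plus strand), the catalytic subunit of the same ligase, moved far less than Gclm. It was at 41.4 and 42.8 CPM in WT 1 and 2 against 33.2 and 36.9 CPM in KO 5 and 6. WT 3 and 4 had 36.6 and 63.8 CPM, against 45.1 and 53.9 CPM in KO 7 and 8, both between the WT libraries. On the log2 scale the fold change was -0.28 ± 0.074 in experiment 1 and -0.019 ± 0.28 in experiment 2 (edgeR adjusted p = 0.0132 and 0.971), and the difference of 0.25 did not pass (edgeR interaction, adjusted p = 0.573). The call in experiment 1 was lost without WT 2 or KO 5 (edgeR adjusted p = 0.0715 and 0.0678) and with upper-quartile scaling (0.0681). With all 8 libraries in 1 fit its adjusted p was 0.389. Without WT 4 the difference passed, at 0.70 (edgeR interaction, adjusted p = 0.0197).

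Among the thioredoxin and peroxiredoxin genes, Txnrd1 had a negative fold change of like size in both experiments, and Srxn1 and Prdx1 fell in experiment 1 and did not pass in experiment 2. Txnrd1 (chr10:82833951-82897712, plus strand), the cytosolic reductase that recycles thioredoxin with NADPH, was at 285 and 265 CPM in WT 1 and 2 and at 143 and 164 CPM in KO 5 and 6. Experiment 2 gave 342 and 550 CPM in WT 3 and 4 and 224 and 264 CPM in KO 7 and 8. All 4 KO libraries were under the lowest WT library, the nearest being KO 8 and WT 2. The log2 fold change was -0.86 ± 0.079 in experiment 1 and -0.87 ± 0.26 in experiment 2 (edgeR adjusted p = 7.04e-05 and 0.0806), and their difference was -0.023 (edgeR interaction, adjusted p = 0.958). The value in experiment 2 passed the threshold with DESeq2 (adjusted p = 0.00618), in 1 edgeR fit over all 8 libraries (0.0174), and without WT 3 (-1.18, edgeR adjusted p = 0.0314). It was -0.48 without WT 4 and -0.76 without KO 7 (edgeR adjusted p = 0.186 and 0.247), and it ran from -1.18 to -0.48 with each library left out.

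Srxn1 (chr2:152105516-152111376, plus strand), sulfiredoxin, restores peroxiredoxins that have been overoxidised. It was at 203 and 167 CPM in WT 1 and 2 against 73.8 and 84.7 CPM in KO 5 and 6, and at 109 and 244 CPM in WT 3 and 4 against 180 and 173 CPM in KO 7 and 8. Prdx1 (chr4:116685544-116700822, plus strand), an abundant peroxidase of the cytosol, was at 1565 and 1416 CPM in WT 1 and 2 against 948 and 919 CPM in KO 5 and 6, and at 992 and 1704 CPM in WT 3 and 4 against 1608 and 1744 CPM in KO 7 and 8. For both genes the groups were apart in experiment 1 and overlapped in experiment 2, where WT 3 was the lowest of the 4 libraries. The log2 fold change of Srxn1 was -1.24 ± 0.12 in experiment 1 and 0.0015 ± 0.38 in experiment 2 (edgeR adjusted p = 0.000408 and 0.998). That of Prdx1 was -0.69 ± 0.075 in experiment 1 and 0.31 ± 0.28 in experiment 2 (edgeR adjusted p = 0.000143 and 0.478). The difference between experiments was 0.99 for Prdx1 (edgeR interaction, adjusted p = 0.0406), and for Srxn1 it was 1.23 and missed the threshold (0.0640), which it passed with DESeq2 (0.00966). With each library left out, the difference of Srxn1 ran from 0.79 without WT 3 to 1.92 without WT 4.

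Nqo1 (chr8:107388225-107403206, minus strand), a widely used marker of NRF2 activity, was among the least abundant members. It was at 13.3 and 9.04 CPM in WT 1 and 2 and at 6.57 and 5.47 CPM in KO 5 and 6. In experiment 2 it was at 4.80 and 8.74 CPM in WT 3 and 4 and at 8.64 and 8.51 CPM in KO 7 and 8. Each of these values rests on at least 175 counts. KO was lower in experiment 1 without overlap, and KO 7 and 8 were near WT 4 and above WT 3 in experiment 2. For Nqo1 the log2 fold change was -0.91 ± 0.21 in experiment 1 and 0.34 ± 0.30 in experiment 2 (edgeR adjusted p = 0.00956 and 0.477), with a difference of 1.23 (edgeR interaction, adjusted p = 0.0473). Without KO 6 the call in experiment 1 was lost (edgeR adjusted p = 0.0634).

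Sod2 (chr17:13006846-13040063, plus strand), the manganese superoxide dismutase of mitochondria, was the only member that fell past the threshold in both experiments, against 4.38% of all tested genes that did so in the same direction. It was at 586 and 413 CPM in WT 1 and 2 and at 59.7 and 60.0 CPM in KO 5 and 6. In experiment 2 it was at 802 and 691 CPM in WT 3 and 4 and at 219 and 200 CPM in KO 7 and 8. All 4 KO libraries were far under the lowest WT library, with the lowest levels in KO of experiment 1. The log2 fold change was -3.07 ± 0.20 in experiment 1 and -1.83 ± 0.15 in experiment 2 (edgeR adjusted p = 0.000458 and 0.00609), an 8.41-fold and a 3.57-fold fall. The fall was larger in experiment 1, by a difference of 1.23 (edgeR interaction, adjusted p = 0.00568), and without KO 8 the adjusted p in experiment 2 was 0.0537.

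**Figure D2:**
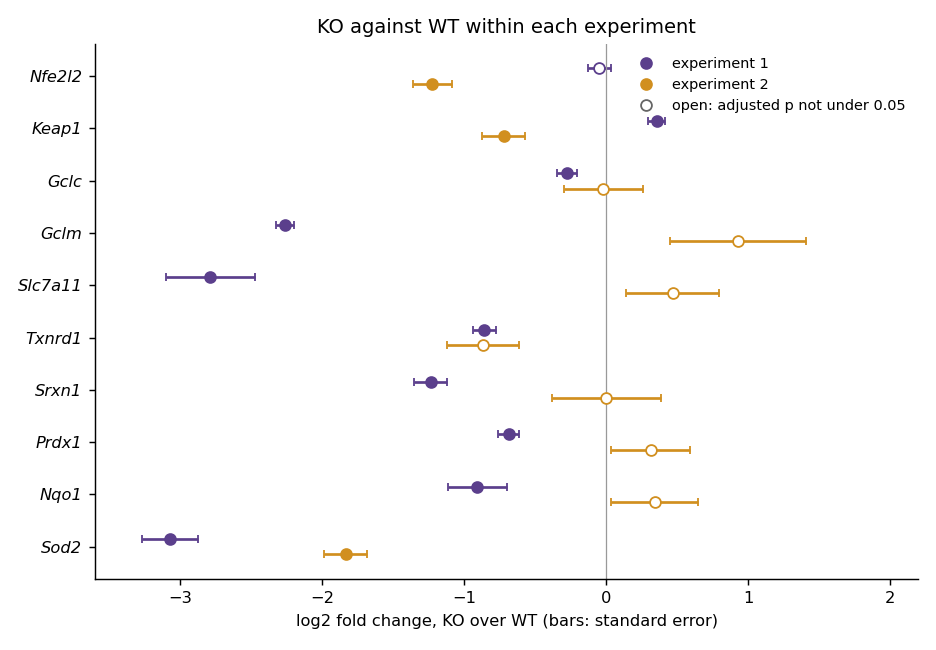
log2 fold change of KO over WT (horizontal axis) for each gene in each experiment, with bars of 1 standard error and filled points for an adjusted p under 0.05 in edgeR. In experiment 1, 9 of the 10 points are filled, and in experiment 2 only those of Nfe2l2, Keap1 and Sod2, while the 2 points of Txnrd1 lie at -0.86 and -0.87.

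Over the 10 genes, 7 had a genotype effect that differed between the experiments by the interaction test, 5 of them higher and 2 lower in experiment 2, against 41.6% of all tested genes, 21% higher and 20.6% lower. For 5 of the 7, Keap1, Gclm, Slc7a11, Prdx1 and Nqo1, the fold changes also had opposite signs, against 33.6% of all tested genes. The calls of Prdx1 and Nqo1 were lost with upper-quartile scaling (edgeR interaction, adjusted p = 0.0547 and 0.0592). Both were also lost without WT 1, WT 2 or any of the 4 KO libraries in turn, and that of Nqo1 without WT 3, which leaves the 5 other genes. The adjusted p then ran from 0.0508 to 0.119 for Prdx1 and from 0.0507 to 0.152 for Nqo1.

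The 2 WT libraries of experiment 2 differed from each other in several members. WT 4 exceeded WT 3 by 2.71-fold in Gclm, 2.25-fold in Srxn1, 1.82-fold in Nqo1, 1.74-fold in Gclc, 1.72-fold in Prdx1 and 1.61-fold in Txnrd1. The ratio was 1.30 for Slc7a11, 0.970 for Nfe2l2, 0.861 for Sod2 and 0.779 for Keap1. In Gclm, Srxn1, Nqo1, Gclc and Prdx1 the 2 WT libraries lay farther apart than the WT and KO means of experiment 2. For these genes this held both in CPM and on the log2 scale. For Txnrd1 it held in CPM only, with WT 3 and 4 at 342 and 550 CPM and WT and KO means of 446 and 244 CPM.

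**Figure D3:**
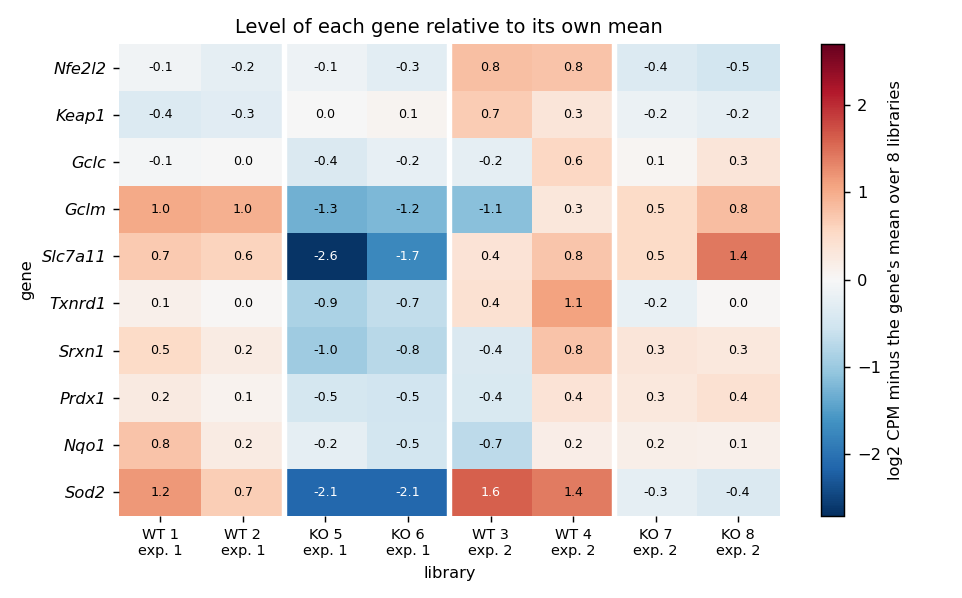
Level of each gene in each library as log2 CPM minus the mean of that gene over the 8 libraries (red above, blue below), with libraries in columns by experiment and genotype. The lowest values are those of Slc7a11 and Sod2 in KO 5 and 6, and WT 1 and 2 resemble KO 7 and 8 in Gclm, Slc7a11, Srxn1 and Prdx1.

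The resemblance of groups across experiments noted above for all genes held for the members. The root mean square of the log2 difference over the 10 genes was 0.454 when WT 1 and 2 were set against KO 7 and 8, the smallest of the 6 pairs of groups. Within experiment 1 the genotypes differed by 1.61 in this measure, and within experiment 2 by 0.879. Genotype and experiment were taken from the labels as given. An exchange of genotype labels within 1 experiment would reverse every sign there and was not tested. By these labels Mkl1 was 1.31-fold lower in KO in experiment 1 and 2.25-fold lower in experiment 2. With 2 WT libraries in each experiment, the difference between their WT levels cannot be told apart from the experiment.

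With both experiments in 1 fit with experiment as a term, 2 of the 10 genes passed the threshold, Sod2 and Txnrd1, both lower. Sod2 had a log2 fold change of -2.45 ± 0.28 and Txnrd1 of -0.86 ± 0.16 (SE, n = 4 against 4 libraries, edgeR adjusted p = 0.00666 and 0.0259), each lower in 4 of 4 KO libraries. The background of this fit was 7.12% of all tested genes in either direction with 3.41% lower and 3.72% higher. Both genes had 4 KO libraries below the lowest WT library, as had 6.25% of all tested genes, and 6.46% had them above the highest. The values of all 10 genes were below 0, with a median of -0.62 against 0.0043 over all tested genes. Within the single experiments, 9 of the 10 were below 0 in experiment 1 and 5 in experiment 2. For the 5 genes with a called difference and opposite signs, the values of the common fit average over unlike effects. The value of Nfe2l2 was -0.63 ± 0.25 (edgeR adjusted p = 0.169). At an unadjusted p under 0.05, 3 of the 10 passed, Nfe2l2 being the other, against 25.2% of all tested genes. Leaving out WT 1, WT 2, KO 5, KO 6 or KO 7 in turn took Txnrd1 out of the call and left Sod2 as the 1 member called. Without the experiment term no member passed in edgeR (3 at an unadjusted p under 0.05), whereas DESeq2 and limma-voom with the term called 2 each.

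Of 48 further genes of the NRF2 pathway, listed by role, 46 were tested, and Gpx2 and Aldh3a1 were too low. In experiment 1, 27 fell and 8 rose, where 28.1% of all tested genes fell and 27% rose, with a median log2 fold change of -0.33 against 0.01 over all tested genes. In experiment 2, 6 fell and 5 rose, where 8.29% of all tested genes fell and 7.52% rose, with a median of 0.21 against 0.0067. The genotype effect differed between experiments for 28 of the 46, with 20 higher and 8 lower in experiment 2, against 41.6% of all tested genes. Over both experiments, 3 of the 46 passed, a share near the 7.12% of all tested genes. They were Maff (-1.91), Abcc1 (-0.61) and Idh1 (0.65), named after their values were seen, with edgeR adjusted p of 0.0271, 0.0363 and 0.0253.

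The counts by role below stand against the same shares, and each list is short. Among the cofactors and repressors of NRF2, 6 of 8 fell in experiment 1, and 2 fell and 1 rose in experiment 2. Nfe2l1, a relative of NRF2 that governs proteasome genes, fell by 1.49 in experiment 1 on the log2 scale, and Sqstm1, the autophagy receptor p62 that binds KEAP1, fell by 1.54. Bach1, a repressor that competes at antioxidant response elements, was at 313 and 296 CPM in WT 1 and 2 against 195 and 180 CPM in KO 5 and 6. In experiment 2 it was at 144 and 113 CPM in WT 3 and 4 against 263 and 336 CPM in KO 7 and 8. Bach1 thus fell 1.64-fold in experiment 1 and rose 2.33-fold in experiment 2 (edgeR adjusted p = 6.09e-05 and 0.0201). Maff, a small MAF partner, fell in both, by 1.14 and 2.66 on the log2 scale (edgeR adjusted p = 0.00413 and 0.00655).

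Of 6 genes of NADPH supply, 2 fell and 3 rose in experiment 1, and 2 fell in experiment 2. G6pdx, the entry enzyme of the pentose phosphate pathway, rose by 0.74 in experiment 1 and fell by 0.68 in experiment 2 on the log2 scale (edgeR adjusted p = 3.17e-05 and 0.0259), the same order of signs as Keap1. Pgd, the next dehydrogenase of that pathway, changed by 0.37 and -0.58 (edgeR adjusted p = 0.00293 and 0.0364). Idh1, cytosolic isocitrate dehydrogenase, rose by 0.61 in experiment 1 (edgeR adjusted p = 0.000266) and was 0.68 in experiment 2 (0.0656).

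Of 9 tested genes of glutathione use, 4 fell and 1 rose in experiment 1, and 2 rose in experiment 2. Gsta3, a glutathione transferase, was at 6.12 and 5.22 CPM in WT 1 and 2 against 0.162 and 0.200 CPM in KO 5 and 6, and at 0.137 and 1.58 CPM in WT 3 and 4 against 7.12 and 4.87 CPM in KO 7 and 8. Its difference between experiments, 7.75 on the log2 scale, was the largest of the 46 (edgeR interaction, adjusted p = 0.00196). Glrx, glutaredoxin, fell by 1.73 in experiment 1 (edgeR adjusted p = 2.84e-06), and Gsr, the reductase of oxidised glutathione, fell by 0.94 (2.28e-05). In experiment 2, Mgst1 and Gstp1, both glutathione transferases, rose by 1.51 and 1.16 (edgeR adjusted p = 0.0249 and 0.0369).

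Of 11 further peroxiredoxin, thioredoxin, superoxide dismutase and catalase genes, 6 fell and 2 rose in experiment 1, and 2 fell and 1 rose in experiment 2. Prdx6 fell by 1.07 in experiment 1 and rose by 1.19 in experiment 2 (edgeR adjusted p = 5.56e-06 and 0.0206). Prdx3, the mitochondrial peroxiredoxin, fell by 0.88 in experiment 1 (edgeR adjusted p = 1.57e-05). Txn1, thioredoxin, the substrate of TXNRD1, fell by 0.92 in experiment 2 (edgeR adjusted p = 0.0172) and had a log2 fold change of -0.066 in experiment 1 (0.403). Prdx4, of the endoplasmic reticulum, rose by 0.32 in experiment 1 and fell by 0.71 in experiment 2 (edgeR adjusted p = 0.00205 and 0.0250).

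All 5 heme and iron targets fell in experiment 1, and 1 of them, Fth1, rose in experiment 2. Fth1, the ferritin heavy chain, was at 9747 and 9005 CPM in WT 1 and 2 against 5030 and 4965 CPM in KO 5 and 6, and at 5574 and 6076 CPM in WT 3 and 4 against 10101 and 11899 CPM in KO 7 and 8. Its log2 fold change was -0.92 ± 0.083 in experiment 1 and 0.92 ± 0.19 in experiment 2 (edgeR adjusted p = 5.38e-05 and 0.0357). Hmox1, heme oxygenase, fell by 0.83 in experiment 1 (edgeR adjusted p = 4.06e-05), and Blvrb, a biliverdin reductase, fell by 0.73 (3.09e-05) and had a log2 fold change of 0.52 in experiment 2 (0.108). Of 7 tested genes of detoxification and export, 4 fell and 2 rose in experiment 1, and their log2 fold changes in experiment 2 ran from -0.54 to 0.54 without passing in edgeR, the lowest adjusted p being 0.112 for Abcc4. Esd fell by 1.47 and Ephx1, microsomal epoxide hydrolase, rose by 1.74 in experiment 1 (edgeR adjusted p = 2.49e-05 and 8.07e-06).

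**Figure D4:**
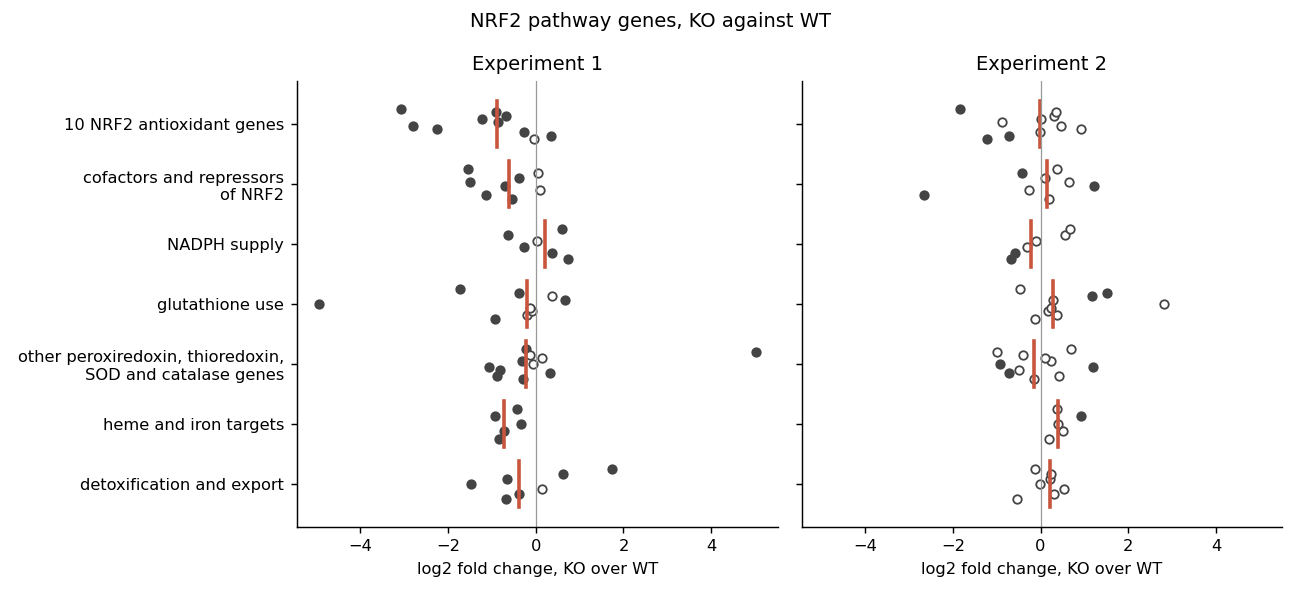
log2 fold change of KO over WT (horizontal axis) for the 10 genes and for each group of further pathway genes in experiments 1 and 2, with a point per gene, filled for an adjusted p under 0.05, and a red line at the median of each group. The median of the 10 genes is -0.88 in experiment 1 and -0.0089 in experiment 2, and that of the heme and iron targets moves from -0.73 to 0.39.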

How the data were processed

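RNA was extracted from BMDMs of 8 samples (4 WT, 4 KO), and libraries were made with a kit that selects mRNA and keeps strand. The authors deposited raw counts per gene for each experiment, made according to their processing notes with STAR 2.7.0f, featureCounts of Subread 1.6.4 and GRCm38. The annotation and the strand setting are not given in the sources used here. The deposited normalized counts, tied to DESeq2 1.22.1 in those notes and scaled within each experiment, were not used. Genotype, library number and experiment were read from the labels.

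Genes were kept by filterByExpr on genotype over the 8 libraries, which left 14418 of 53735. KO was compared with WT in each experiment with the quasi-likelihood F test of edgeR 4.0.16 (R 4.3.3, TMM scaling, Benjamini-Hochberg adjustment over all tested genes, threshold 0.05). The difference between experiments was tested as an interaction over all 8 libraries, and a common effect with experiment as an additive term. Errors are standard errors of log2 fold changes, taken as the size of the log2 fold change over the square root of its F statistic. DESeq2 1.42.0, limma-voom (limma 3.58.1), upper-quartile scaling, other filters and thresholds, other designs and leaving out each library were alternatives. The code was tested on simulated data. Levels are CPM, divided by the union exon length of GENCODE M21 where genes are compared. Promoter windows came from RefSeq, and near-identical copies were sought with minimap2 2.31.

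The 10 members and all lists were chosen with earlier results of these data known. The genes named are all members and, from each list, the 2 with the lowest p in experiment 1, in experiment 2 and for the difference, and a gene so named may be given in any comparison. Counts of a replicate pair differed by 11.0 to 73.1 in chi-square per gene, more than counting noise gives, and every member had at least 174 counts in each library. The members with the fewest counts, Slc7a11 and Nqo1, carry the most counting noise.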

Additional observations from a re-analysis of the deposited data

Results flagged for a closer look

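The genotype effect differed between the experiments, by the edgeR interaction test adjusted over all tested genes, for 7 of the 10 antioxidant genes. It also differed for 20 of the further pathway genes named by rule. In this test 41.6% of all tested genes passed. The rule picked further genes in part for the lowest p of this same test, so the 20 is not a result about their lists. Of all 46 further genes tested, 18 did not pass. All values here are log2 fold changes of KO over WT in experiment 2 minus those in experiment 1. Among the antioxidant genes the value was 3.25 for Slc7a11, 3.18 for Gclm, 1.23 for Nqo1, 1.23 for Sod2 and 0.99 for Prdx1, and it was -1.19 for Nfe2l2 and -1.09 for Keap1. Sod2 was lower in KO in both experiments, so that its value marks a smaller fall in experiment 2.

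Among the cofactors and repressors it was 2.12 for Nfe2l1, 1.92 for Bach1, 1.89 for Sqstm1 and -1.53 for Maff. In NADPH supply it was -1.44 for G6pdx and -0.96 for Pgd. In glutathione use it was 7.75 for Gsta3, 1.89 for Mgst1, 1.26 for Glrx, 0.79 for Gsr and 0.77 for Gstp1. Among peroxiredoxin and thioredoxin genes it was 2.25 for Prdx6, 1.29 for Prdx3, -1.04 for Prdx4 and -0.87 for Txn1. Among heme and iron targets it was 1.82 for Fth1 and 1.24 for Blvrb, and in detoxification and export it was 1.44 for Esd, 0.69 for Abcc4 and -1.88 for Ephx1.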

How the results depend on the processing

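No paired analysis was possible because the library numbers in the labels run from 1 to 8 and WT and KO share none. Of 560 values of single members under the alternatives, 482 kept their direction and side of the threshold, 47 lost and 11 gained the call, and 20 changed sign. The number of members called in experiment 1 was 9, and 4 with a 2-fold minimum. In experiment 2 it was 3, and 1 at an adjusted p under 0.01. Over both experiments it was 2, and it was 1 at an adjusted p under 0.01, 1 with a 2-fold minimum, 0 in edgeR without the experiment term (3 at an unadjusted p under 0.05), and 4 for the mean effect in the fit with the interaction, which added Nfe2l2 and Slc7a11. With each library left out it was 8 to 9 in experiment 1, 0 to 4 in experiment 2 (0 without KO 8, with 3 at an unadjusted p under 0.05), 5 to 9 for the difference and 1 to 2 over both.

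Over all genes, 7948 passed in experiment 1 and 2231 with a 2-fold minimum. In experiment 2, 2279 passed, 234 at an adjusted p under 0.01, 1274 with a 2-fold minimum, 4899 in 1 fit over all 8 libraries, and 232 to 1388 with a library left out. For the difference, 5996 passed, 3247 at an adjusted p under 0.01, 3245 with a 2-fold minimum, and 3935 without WT 2. Over both, 1027 passed, 2492 with DESeq2, 208 at an adjusted p under 0.01, 331 with a 2-fold minimum, 4 without the experiment term, 4811 for the mean effect, and 243 to 1100 with a library left out.

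The sign changes were in values that did not pass the threshold. Nfe2l2 in experiment 1 became 0.053 with upper-quartile scaling, which shifts the median of all genes by 0.1 there, and ran from -0.12 to 0.036 with a library left out. In experiment 2, Gclc became 0.030 with limma-voom and 0.025 with upper-quartile scaling, and with a library left out ran from -0.37 to 0.44, Srxn1 from -0.47 to 0.70, Prdx1 from -0.027 to 0.76, Nqo1 from -0.030 to 0.84 and Slc7a11 from -0.051 to 0.85. The difference of Txnrd1 became 0.013 with limma-voom and 0.0036 with no filter, and ran from -0.30 to 0.36, that of Gclc from -0.071 to 0.70. Over both, Gclc ran from -0.30 to 0.0071. The cause of these changes was not tested.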

Other observations

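The balance of the subunits of glutamate-cysteine ligase varied more over libraries than that of the NRF2 and KEAP1 transcripts. Per kb of exon, the ratio of Gclm to Gclc was 3.23 and 2.97 in WT 1 and 2, 0.813 and 1.26 in WT 3 and 4, 0.80 and 0.77 in KO 5 and 6, and 2.07 and 2.16 in KO 7 and 8. The catalytic subunit gene was thus as abundant as the modifier gene or more so in WT 3, KO 5 and KO 6 and the less abundant in the other 5 libraries. The ratio of Nfe2l2 to Keap1 ran from 7.42 to 9.66 in the 4 WT libraries and from 5.62 to 6.57 in the 4 KO libraries, without overlap. Keap1 went in opposite directions in the experiments, and Nfe2l2 was lower past the threshold only in experiment 2. How often ratios of other gene pairs separate the genotypes in this way was not counted. The ratio of Srxn1 to Prdx1 ran from 0.118 to 0.154 in WT and from 0.0839 to 0.121 in KO libraries. These ratios were set beside each other after the levels were seen and were not tested.

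For each member, the gene whose log2 CPM followed it most closely over the 8 libraries was sought among 9072 well expressed genes. Pearson's r was 0.996 for Nfe2l2 with Orai2, 0.998 for Keap1 with Tlr3, 0.956 for Gclc with Trappc5, 0.994 for Gclm with Smyd2 and 0.994 for Slc7a11 with Slc43a3. It was 0.985 for Txnrd1 with Nhp2, 0.992 for Srxn1 with Card19, 0.970 for Prdx1 with Cox17, 0.953 for Nqo1 with Tomm20 and 0.996 for Sod2 with Nadk. The points are 8 libraries in 4 groups, and the values describe these libraries only.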
